A study of Mus musculus with 20 samples.

Results

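Eomes, Lmx1a and Calb2 are 3 genes by which unipolar brush cells of the cerebellum are recognised, and their mRNA was followed in the cerebellum of a mouse model of spinocerebellar ataxia type 3 (SCA3). The 3 genes were taken as the rows of the count table whose Ensembl ID carries these symbols, out of 29200 genes. They were selected on the 12-month log2 fold change between genotypes, where Eomes is among the genes furthest down. For these 3 the differences between groups that involve 12-month mice are therefore given as a description with no test. Their SEs were worked back from the log2 fold change and the F statistic of edgeR's fit, and are not read as a test. The 2-month mice did not enter that rule, and there the 3 genes were tested. The genes were, however, chosen with earlier results of these data known, so the choice was not blind to the 2-month mice.

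The 20 libraries each come from the cerebellum of 1 male mouse on the C57BL/6N background. Each genotype was sampled at 2 months and at 12 months, with 5 mice in each of the 4 groups. WT/WT mice are littermates with the unchanged Atxn3 gene. 304Q/304Q mice carry, on both alleles, an expanded repeat knocked into Atxn3, the gene of the deubiquitinase ataxin-3, under its own mouse promoter, so that every cell that uses the gene makes the expanded protein. The line goes back to a single founder. The sample labels name ataxin-2 for the wild-type alleles and a plain CAG repeat, whereas the description of the mouse line gives Atxn3 and an interrupted CAACAG repeat, which was followed here.

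Unipolar brush cells are small excitatory interneurons of the granular layer, dense in the vestibulocerebellum. Each receives a single mossy fibre on a brush-shaped dendrite, prolongs or inverts its signal, and passes it on to granule cells. They arise from the rhombic lip. The T-box transcription factor Eomes, also called Tbr2, stays on in the adult cells, and the LIM homeodomain factor Lmx1a marks them too. Calretinin, the calcium-binding protein encoded by Calb2, labels the OFF type of these cells. Neither companion marker is particular to them: granule cells of the mouse also make calretinin, and Lmx1a is also known from the choroid plexus. In RNA of the tissue, fewer cells of a type and less RNA per cell cannot be told apart.

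Eomes (ENSMUSG00000032446) lies at chr9:118478212-118486132 on the plus strand of GRCm38, Lmx1a (ENSMUSG00000026686) at chr1:167689237-167848741 on the plus strand, and Calb2 (ENSMUSG00000003657) at chr8:110137502-110168210 on the minus strand. RefSeq promoters of GRCm38.p6 were at hand for Eomes and Lmx1a. The 250 bases before each RefSeq start are shown, and the start below means this one. It differs from the gene bounds given above. The Eomes window ends short of the first base of the gene there, and the Lmx1a window lies inside the gene span. The mRNAs of these 2 transcription factors did not detectably follow each other from mouse to mouse, as described further on. The part of the promoters in this was not tested. Capitals mark matches to 5 motifs searched on both strands.
Eomes, chr9:118477939-118478188, plus strand: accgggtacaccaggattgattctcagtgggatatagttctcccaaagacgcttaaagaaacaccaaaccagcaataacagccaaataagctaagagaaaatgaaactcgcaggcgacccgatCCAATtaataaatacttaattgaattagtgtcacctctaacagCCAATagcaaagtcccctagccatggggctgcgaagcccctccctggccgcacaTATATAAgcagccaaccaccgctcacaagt
Lmx1a, chr1:167689308-167689557, plus strand: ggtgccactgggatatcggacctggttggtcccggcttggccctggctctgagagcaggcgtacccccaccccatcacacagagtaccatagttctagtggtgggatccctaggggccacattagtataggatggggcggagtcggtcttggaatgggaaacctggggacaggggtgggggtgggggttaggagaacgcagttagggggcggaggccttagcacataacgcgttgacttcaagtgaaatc
The Eomes window held the TATA box TATATAA beginning 30 bases before the start, a motif found in 3.26% of 27025 promoter windows of this length. It also held the CCAAT box in 2 places, beginning 127 and 84 bases before the start, and this motif was in 34.5% of all windows. The other 3 motifs searched were the LIM homeodomain core TAATTA, in 4.9% of all windows, the T-box core AGGTGT, in 12.0%, and the motif AAAGGTCA of the Nr4a receptors, in 1.31%, and none of these 3 was found in the Eomes window. None of the 5 motifs was found in the Lmx1a window. The TATA box and CCAAT box matches do not overlap one another. GC content was 46.4% in the Eomes window and 59.2% in the Lmx1a window.

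Library totals lay between 11385380 and 27636687 counted reads. Levels are given as CPM, the counts scaled to a library of fixed size, and, where genes are compared with each other, as RPKM, which is CPM per kilobase of annotated exon. Differences are log2 fold changes of 304Q/304Q against WT/WT unless another pair is named. DEGs are genes with both an adjusted p of 0.05 or less and a log2 fold change past 0.5 in either direction. Markers of granule cells summed to between 5170 and 6531 CPM and those of Purkinje cells to between 4433 and 6685 CPM, as the tissue label says, whereas 13 brainstem genes together gave at most 3.40 CPM. Choroid plexus markers stood apart in 6 libraries, with a summed level between 409 and 2114 CPM against 14.97 to 31.4 CPM in the other 14. These 6 were 304Q/304Q mouse 3 at 2 months, WT/WT mice 1, 2 and 5 and 304Q/304Q mice 1 and 3 at 12 months. Where a marker or signalling gene lost its call without these 6 libraries, or moved far, the value without them is given beside it. Without them the 12-month groups keep only WT/WT mice 3 and 4 and 304Q/304Q mice 2, 4 and 5. Effects of choroid plexus RNA and of having fewer mice cannot be told apart in these fits. Atxn3 itself was read in every library, at 11.1 to 23.2 CPM.

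The 3 markers differed widely in level. Over all 20 mice the mean level was 308 RPKM for Calb2, 8.59 RPKM for Eomes and 0.344 RPKM for Lmx1a. In the WT/WT mice of 2 months the Calb2 level was 20.9 times the Eomes level per length, and in the 304Q/304Q mice of 12 months 128 times. Eomes in turn was read at 39.9 times the Lmx1a level in the former and 9.48 times in the latter. Calb2 had between 5086 and 16734 counts per library, Eomes between 127 and 1190, and Lmx1a between 2 and 53. Calb2 and Eomes passed the limit of a mean of 50 counts for the test over 12153 genes. Lmx1a did not, with a mean of 16.8 counts, and its fold changes come from a separate fit with a lower limit of 10 counts, over 15194 genes.

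**Figure D1:**
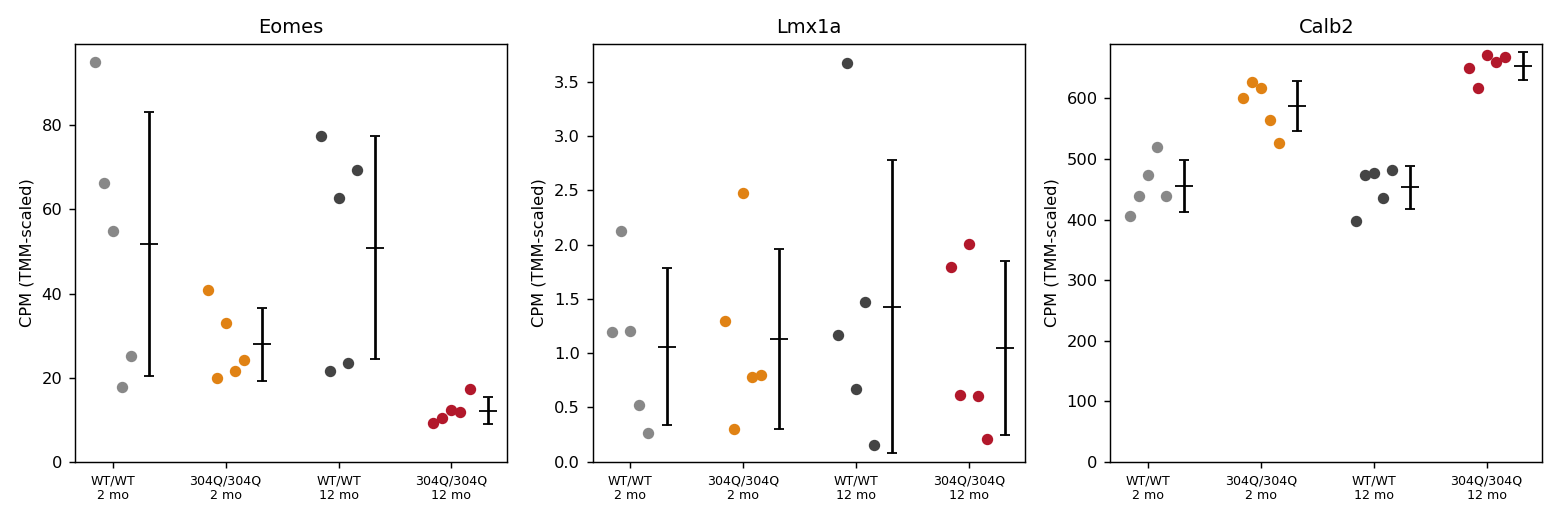
Level of Eomes, Lmx1a and Calb2 in CPM in each of 20 mice (points, replicates 1 to 5 from left to right) with the mean and SD of each group of 5 (bar beside the points). Eomes was lowest in the 304Q/304Q mice of 12 months (9.13 to 17.3 CPM) and scattered widely in both WT/WT groups, Lmx1a overlapped in all groups, and Calb2 of the 304Q/304Q mice lay above WT/WT at both ages.

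Eomes was read in the WT/WT mice of 2 months at 95.04, 66.3, 54.9, 17.7 and 25.2 CPM. In the 304Q/304Q mice of 2 months it was read at 40.8, 19.9, 32.9, 21.6 and 24.2 CPM. The WT/WT mice thus spread over 5.38 times from lowest to highest, and all 5 304Q/304Q values lay inside that span. The group means were 51.8 ± 31.5 CPM and 27.9 ± 8.79 CPM (SD, n = 5 each). The log2 fold change at 2 months was -0.88 (SE 0.367, 95% interval -1.63 to -0.12), and edgeR's quasi-likelihood test gave it a p of 0.0252, or 0.86 when adjusted, so the difference did not pass. WT/WT mouse 1 carried much of it: without this mouse the log2 fold change was -0.54. Leaving out each library in turn gave values between -1.10 (without WT/WT mouse 4) and -0.54. With surrogate variables in DESeq2 the log2 fold change was -0.29.

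At 12 months the WT/WT mice had Eomes levels of 77.4, 21.5, 62.8, 23.5 and 69.3 CPM. The 304Q/304Q mice of 12 months had 9.13, 10.4, 12.2, 11.8 and 17.3 CPM. Every 304Q/304Q mouse was below every WT/WT mouse, and the highest of them was below the lowest value in any other group. Means were 50.9 ± 26.5 CPM and 12.2 ± 3.13 CPM (SD, n = 5 each), a level 4.16-fold lower in the fit. The log2 fold change was -2.06 (SE 0.397) and stood at place 4 among the 222 DEGs with lower levels in 304Q/304Q mice, which is how the gene was chosen. At 12 months 1.83% of all tested genes were DEGs in this direction, and 5.43% had groups that did not overlap in this direction. Just above it in that order were Nr4a2 at -2.10 and Hspa1b at -2.16, and just below it Myo15 at -1.99 and Il20rb at -1.89. Leaving out each library in turn gave log2 fold changes between -2.25 and -1.86. Without the 6 libraries with choroid plexus RNA the log2 fold change was -1.71, and with surrogate variables in edgeR it was -1.51.

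Between ages, the WT/WT means of Eomes were nearly equal, with a log2 fold change of -0.02 at 12 against 2 months (SE 0.360). In 304Q/304Q mice the 5 values of 12 months were all below the 5 of 2 months, as was so for 4.23% of all tested genes, with a log2 fold change of -1.21 (SE 0.398). The genotype difference at 12 months minus that at 2 months was -1.18 on the log2 scale (SE 0.537). Without the 6 libraries with choroid plexus RNA these values were -1.03 and -0.77, and the age difference in WT/WT mice was -0.26. In order of the group means, WT/WT at 2 months and WT/WT at 12 months overlapped over nearly their whole range, 304Q/304Q at 2 months overlapped both, and 304Q/304Q at 12 months overlapped none of the others. The spread itself differed: the coefficient of variation of Eomes was 60.7% and 51.9% in the WT/WT groups of 2 and 12 months and 31.5% and 25.7% in the 304Q/304Q groups. At each age 3 of the 5 WT/WT mice lay at 54.9 CPM or more and the other 2 at 25.2 CPM or less. The antisense gene Gm33460 overlaps the end of Eomes, and since no strand setting is known for the counting, reads there cannot be assigned with certainty. It held only 45 counts over all 20 libraries, against 10135 for Eomes.

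Lmx1a was read at the edge of detection. The WT/WT mice of 2 months had 1.20, 2.12, 1.20, 0.52 and 0.26 CPM. The 304Q/304Q mice of 2 months had 1.29, 0.30, 2.47, 0.78 and 0.80 CPM. These ranges overlapped almost wholly. The log2 fold change was 0.10 (SE 0.634, 95% interval -1.21 to 1.41), with an adjusted p of 0.99 in edgeR's quasi-likelihood test, and the interval covers levels from 0.433 to 2.65 times those of WT/WT mice.

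At 12 months Lmx1a was read at 1.17, 3.67, 0.67, 1.47 and 0.16 CPM in WT/WT mice. In 304Q/304Q mice it was read at 1.80, 0.62, 2.01, 0.61 and 0.21 CPM. The groups overlapped again, with a log2 fold change of -0.47 (SE 0.634). Between ages it was 0.44 in WT/WT mice and -0.13 in 304Q/304Q mice, and all 4 groups overlapped in every pair. The highest Lmx1a value of 3 groups came from a library with choroid plexus RNA: WT/WT mouse 2 and 304Q/304Q mouse 3 at 12 months and 304Q/304Q mouse 3 at 2 months, whose choroid plexus markers summed to 2114, 1404 and 1722 CPM. WT/WT mouse 5 of 12 months had the lowest Lmx1a level of all with choroid plexus markers at 1004 CPM. Without the 6 libraries the log2 fold change of Lmx1a was -0.34 at 2 months and -1.15 at 12 months. Without WT/WT mouse 2 of 12 months alone it was 0.25 at 12 months, so 1 mouse set the sign. The part of choroid plexus RNA in the Lmx1a level was not tested.

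Calb2, the abundant member, was steadier. The WT/WT mice of 2 months had 406, 438, 473, 519 and 439 CPM. The 304Q/304Q mice of 2 months had 601, 627, 617, 564 and 527 CPM. Every 304Q/304Q mouse was above every WT/WT mouse, as was so, in this direction, for 0.494% of all tested genes. Means were 455 ± 43.0 CPM and 587 ± 41.4 CPM (SD, n = 5 each). Calb2 rose at 2 months with a log2 fold change of 0.37 (SE 0.0634, 95% interval 0.24 to 0.50), a level 1.29-fold higher, with an adjusted p of 0.0148 in edgeR's quasi-likelihood test. The difference was under the fold change limit for a DEG. By the adjusted p alone 6 of the 12153 tested genes passed at 2 months, or 0.0494%, and Calb2 was the only one of them with a higher level in 304Q/304Q mice. The other 5 were Igfbp5, Mal, Chn2, Nab2 and Pex5l, with log2 fold changes between -0.75 and -0.28.

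The size of the Calb2 difference at 2 months hardly moved between fits, whereas its adjusted p did. It lay between 0.33 and 0.42 on the log2 scale when each library was left out, and the adjusted p rose above 0.05 without any 1 of WT/WT mice 1, 2 and 5 or 304Q/304Q mice 1, 2 and 3 of this age, up to 0.0915. The adjusted p was 0.0759 in a fit of the 2 groups alone, and 0.148 without the 6 libraries with choroid plexus RNA, in which the log2 fold change was 0.35.

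At 12 months Calb2 was at 397, 473, 476, 436 and 482 CPM in WT/WT mice. In 304Q/304Q mice it was at 650, 616, 672, 660 and 669 CPM. The groups lay far apart, as they did in this direction for 3.51% of all tested genes, and the 304Q/304Q mice differed among themselves by only 3.42% (coefficient of variation). The log2 fold change was 0.53 (SE 0.0635), with means of 453 ± 36.1 CPM and 654 ± 22.4 CPM (SD, n = 5 each). Between ages, the level in WT/WT mice differed by -0.01 on the log2 scale (SE 0.0634) and that in 304Q/304Q mice by 0.16 (SE 0.0633), where the highest values of 2 months overlapped the lowest of 12 months. The genotype difference at 12 months exceeded that at 2 months by 0.16 (SE 0.0896). In order of the means, the WT/WT groups of the 2 ages did not differ beyond their spread, then came 304Q/304Q at 2 months and then 304Q/304Q at 12 months. Eomes and Calb2 thus lay on opposite sides of 0 at both ages.

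**Figure D2:**
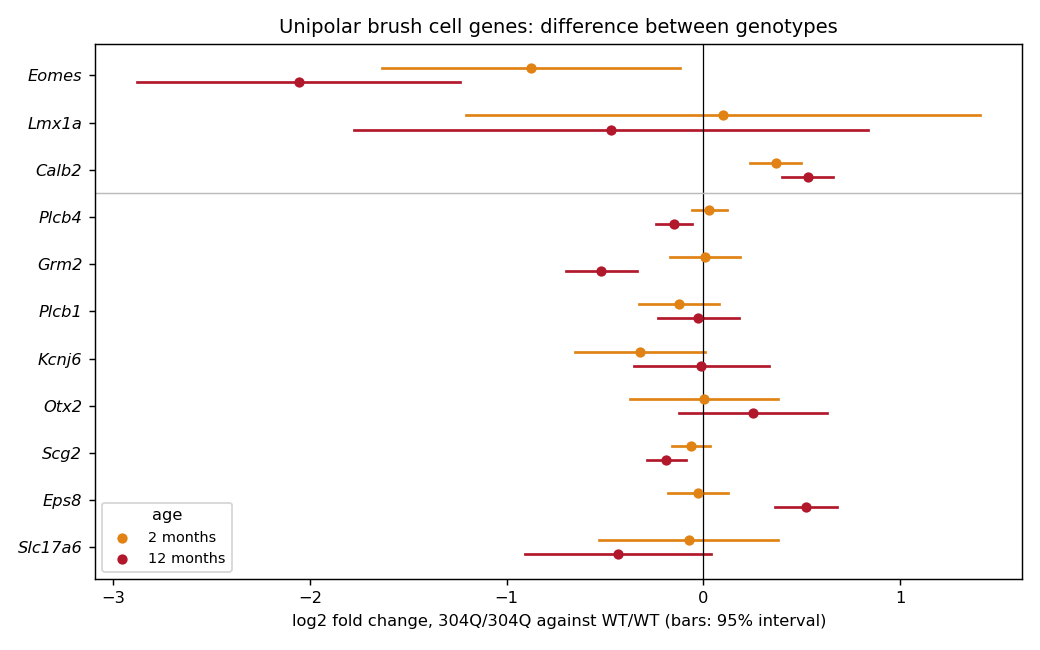
Log2 fold change of 304Q/304Q against WT/WT mice with its 95% interval at 2 months (orange) and 12 months (red), for the 3 markers above the grey line and 8 signalling genes below it. The intervals of Lmx1a and Eomes are the widest of the 11 genes, those of the markers at 12 months are no test, Calb2 lies above 0 at both ages, and Grm2 and Eps8 lie away from 0 at 12 months and near 0 at 2 months.

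Libraries differed in how strongly counts rose or dropped with the GC content of a gene, and Calb2 moved with this trend. The slope per library lay between -0.157 and 0.170 log2 units per 10 percentage points of GC over 12140 genes. It was negative in WT/WT mice 1 to 3 of 2 months and positive in WT/WT mice 2 to 5 of 12 months. Deviations of Calb2 from the mean of its group correlated with the deviations of the slope over the 20 mice (Pearson's r 0.756, adjusted permutation p 0.00774; Spearman's rho 0.714, adjusted permutation p 0.00774; r 0.609 without the 2 libraries farthest from the median). For Eomes r was -0.503 and rho -0.453, and for Lmx1a -0.373 and -0.395, each with an adjusted permutation p of at least 0.138 over the 6 tests. With the GC and length trend of each library removed, the log2 fold change of Calb2 was 0.34 at 2 months (adjusted p 0.00265) and 0.59 at 12 months, and that of Eomes -0.92 and -1.99. The differences between genotypes were thus nearly as large, or larger, without the trend.

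Within groups the 3 genes did not move together. Deviations of log2 CPM from the group means gave a Pearson's r of -0.018 (Spearman's rho -0.008) for Eomes and Lmx1a, -0.319 (rho -0.223) for Eomes and Calb2 and -0.149 (rho -0.174) for Lmx1a and Calb2, over 20 mice. The lowest adjusted permutation p of the 6 tests was 0.856. Without the 2 mice farthest from the median of Eomes, r of Eomes and Calb2 was 0.045. The mice with high Eomes were therefore not the mice with high Lmx1a or low Calb2 to a degree that could be detected here.

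The genes whose level was most like that of Eomes over the 20 libraries, by Pearson's r of log2 CPM, were Ak4 (r 0.94), Tsc22d3 (0.93), Prag1 (0.91), Txndc11 (0.90), Tle3, Bcl6, Per1, Sgk1, a gene without a symbol and Nr4a3 (0.88). Of 12152 genes compared, 1% had an r above 0.771. By deviations from the group means, which leave out the differences between groups, the closest were Dusp3 (0.93), Slc2a1 (0.92), Xbp1 (0.91), Bcl6 (0.91), Prox1 (0.90), Per1 (0.90), Tle3, Tsc22d3, Mpp2 and Sfpq (0.88). Bcl6, Per1, Tle3 and Tsc22d3 stood in both lists. With the GC and length trend removed, 8 of these 10 were still among the 10 closest, and Sfpq went to place 116. These values share libraries, depth and base composition and are a description.

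At 12 months the 10 genes of the second list had log2 fold changes between genotypes that were all nearer to 0 than the -2.06 of Eomes. The selection fixes this in advance, since Eomes was chosen as 1 of the largest falls, so it is no result about these genes. Most were negative, at -1.08 for Per1, -0.79 for Bcl6, -0.61 for Tsc22d3, -0.42 for Tle3, -0.40 for Xbp1, -0.33 for Slc2a1 and -0.18 for Sfpq. Mpp2 was close to 0, Dusp3 at 0.04 and Prox1 at 0.21. Dusp3 was at 118 ± 16.04 CPM in WT/WT and 122 ± 3.16 CPM in 304Q/304Q mice of 12 months. Slc2a1, a glucose transporter, was at 134 ± 17.9 and 106 ± 5.80 CPM, and Per1, a clock protein, at 226 ± 55.7 and 107 ± 26.6 CPM. WT/WT mouse 1 of each age had high levels of nearly all of them, as of Eomes.

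**Figure D3:**
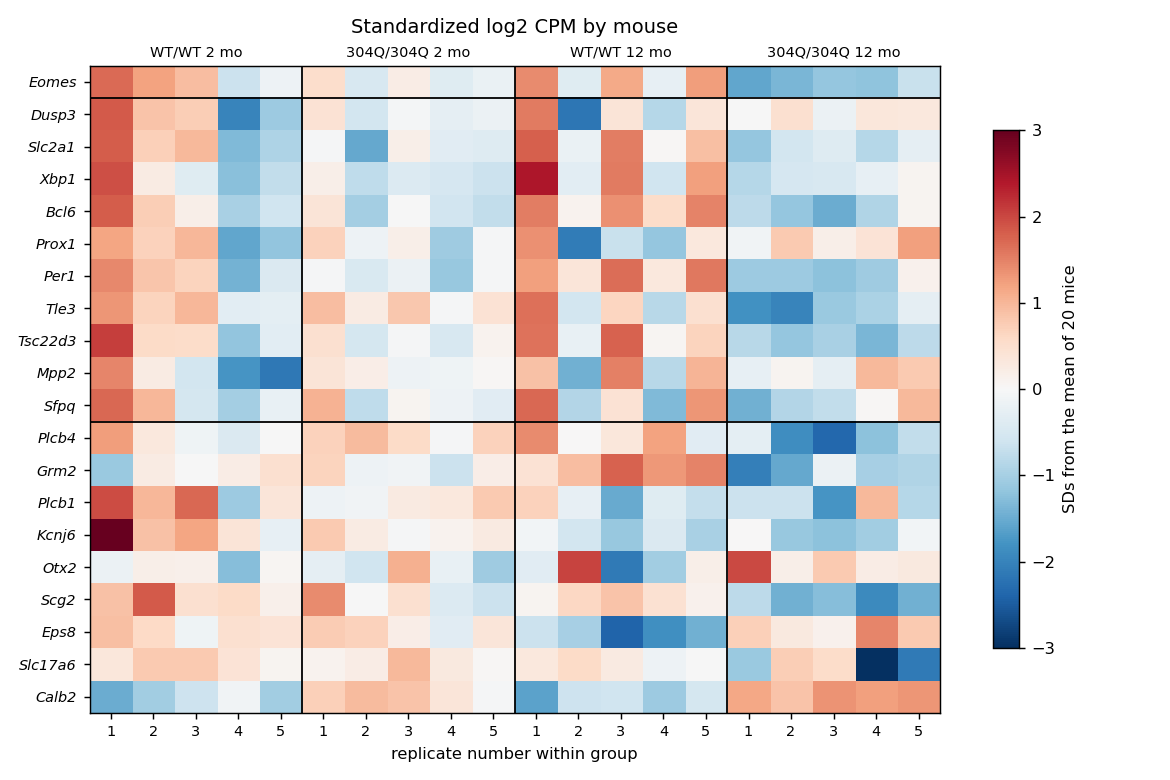
Log2 CPM of each gene in each of 20 mice, in SDs from its mean over all mice, for Eomes (top), the 10 genes whose deviations from the group means were most like it (middle), and 8 signalling genes with Calb2 (bottom). WT/WT mouse 1 of each age is high in nearly all rows of the middle block, and the 304Q/304Q mice of 12 months are low throughout in Eomes but not in Dusp3 or Prox1.

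The genes most like Lmx1a were further off, with Tmem170 at r 0.71, followed by Odf2l, Pcsk2os1, Rimkla and Trappc3 (0.61), and by deviations Tmem170 (0.80), Rpp30, Cgnl1, Gpcpd1 and Pcsk2os1 (0.70). Capn5 (0.86), Syndig1l, Tbc1d16 and Sez6 (0.83) were among the 5 genes most like Calb2 over the libraries, and Tmem246 (0.86), Atox1, Map2k2 and Gcsh (0.83) among the 5 most like it by deviations. Syndig1l differed between genotypes by 0.54 at 2 months and 0.68 at 12 months on the log2 scale, beside 0.37 and 0.53 for Calb2. The genes named for Eomes, Lmx1a and Calb2 had none in common.

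Signalling proteins of unipolar brush cells were followed in a list of 8 genes, all of them tested: the phospholipase C Plcb4, the inhibitory glutamate receptor Grm2 with Plcb1 and the potassium channel Kcnj6, the homeodomain factor Otx2, the secretory granule protein Scg2, the actin-capping protein Eps8 and the vesicular glutamate transporter Slc17a6. At 2 months none of the 8 was a DEG, against 0.00823% of all tested genes, and none passed the adjusted p; of all genes 674, or 5.55%, had an unadjusted p under 0.05, and of the 8 none did. Their median log2 fold change was -0.04, against 0.00 over all genes. The list is not exclusive to unipolar brush cells, since Purkinje cells use Plcb4 as well and Golgi cells use Grm2.

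At 12 months 1 of the 8 was a DEG with a lower and 1 with a higher level in 304Q/304Q mice, against 3.09% of all tested genes, and the median was -0.09. Grm2, which couples to the inhibition of OFF cells and which Golgi cells also use, was at 32.2, 34.8, 39.7, 36.9 and 38.1 CPM in WT/WT mice. In 304Q/304Q mice it was at 21.9, 23.8, 29.3, 25.8 and 26.2 CPM. The groups did not overlap, as was so in this direction for 5.43% of all tested genes. Grm2 fell by 0.52 on the log2 scale (SE 0.0869, adjusted p 0.000206 in edgeR's quasi-likelihood test). Eps8 was at 93.7, 88.3, 69.7, 76.7 and 81.9 CPM in WT/WT mice. In 304Q/304Q mice it was at 118, 110, 107, 134 and 119 CPM. Here the 304Q/304Q mice were all higher, as was so in this direction for 3.51% of all tested genes. Eps8 rose by 0.52 (SE 0.0753, adjusted p 3.47e-05 in the same test). Both lay close to the limit of 0.5 for a DEG. Grm2 came under it without any 1 of WT/WT mouse 3 and 304Q/304Q mice 1 and 2 of 12 months (to -0.47 at the least), with surrogate variables in DESeq2 and edgeR (-0.47 and -0.48) and with the GC and length trend removed (-0.45). Eps8 came under it without any 1 of WT/WT mice 3 and 4 and 304Q/304Q mouse 4 of 12 months (to 0.47 at the least) and with the trend removed (0.46). The adjusted p stayed at most 0.00617 for Grm2 and 0.000554 for Eps8 in all fits.

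By the adjusted p alone, 3 of the 8 fell and 1 rose at 12 months, against 12.5% of all tested genes in either direction. Beside Grm2, Scg2 fell by 0.19 and Plcb4 by 0.15, both less than the limit for a DEG. Without the 6 libraries with choroid plexus RNA neither passed, with log2 fold changes of -0.24 and -0.17 (adjusted p 0.0732 and 0.109). Plcb1, Kcnj6, Otx2 and Slc17a6 stood at -0.03, -0.01, 0.25 and -0.43, none of which passed. Otx2, which the choroid plexus also expresses, was highest in libraries that held choroid plexus RNA, at 21.7 CPM in WT/WT mouse 2 and 21.5 CPM in 304Q/304Q mouse 1 of 12 months. Without the 6 libraries its log2 fold change at 12 months was 0.56 (adjusted p 0.0575), and without WT/WT mouse 2 alone 0.48 (adjusted p 0.0540). With surrogate variables in DESeq2 and edgeR it was 0.60 and 0.59 and passed (adjusted p 0.0128 and 0.0236). Slc17a6 had a coefficient of variation of 53.0% in the 304Q/304Q mice of 12 months against 9.86% in WT/WT mice.

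With age, 1 of the 8 was a DEG in WT/WT mice, against 2.58% of all tested genes, and none in 304Q/304Q mice, against 2.28%. The former was Kcnj6, whose level fell by 0.65 (adjusted p 0.0121 in edgeR's quasi-likelihood test). It was at 26.1, 15.2, 16.4, 13.4 and 11.5 CPM in WT/WT mice of 2 months and between 9.19 and 12.0 CPM in the 5 of 12 months. The groups overlapped, and without WT/WT mouse 1 of 2 months the log2 fold change was -0.43. Without the 6 libraries it was -0.71 and missed the adjusted p (0.0713), as it did in a fit of the WT/WT groups alone (0.0544). The genotype difference itself changed with age for Grm2, by -0.53 (adjusted p 0.0208), and for Eps8, by 0.55 (adjusted p 0.0051), 2 of the 8 against 0.938% of all tested genes in the test of the interaction. The interaction of Grm2 missed the adjusted p without the 6 libraries (0.0574), without 304Q/304Q mouse 1 of 2 months (0.0556), without WT/WT mouse 3 of 12 months (0.0510) and with surrogate variables in edgeR (0.0543). With the GC and length trend removed both interactions came under the limit of 0.5, at -0.44 for Grm2 and 0.45 for Eps8. With a library left out they came to -0.47 for Grm2 and 0.49 for Eps8 at the least. No other of the 8 passed by the adjusted p alone there, as 1.95% of all tested genes did. By the adjusted p alone, which 11.5% of all tested genes passed for age in WT/WT mice, Eps8 fell by 0.46 and Grm2 rose by 0.27. In 304Q/304Q mice they stood at 0.09 and -0.26, and neither passed.

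None of the 8 signalling genes was close to Eomes from mouse to mouse. Pearson's r of the deviations from the group means lay between -0.08 for Grm2 and 0.49 for Kcnj6, which stood at place 1292 of 12152 genes. Calb2 stood at place 9193.

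The lineage and the relatives of the markers were also looked at. Of 11 genes of the rhombic lip lineage 10 were tested and none was a DEG in any contrast. Of all tested genes 0.00823% to 3.09% were DEGs, depending on the contrast, so with 10 genes this is no result about the lineage. The most abundant of them, the zinc finger gene Zic1, was at -0.10 at 2 months and -0.12 at 12 months, and Atoh1, which starts the lineage in the embryo, was listed at 0.3 counts on average. Of the T-box relatives of Eomes 7 of 10 were in the table and none reached the limit for the test, with sums of 6.87 to 11.3 CPM per library, less than Eomes in most mice. Of the LIM homeodomain relatives of Lmx1a, Lhx1 and Lhx5, which Purkinje cells use, were tested, and by the adjusted p both fell at 12 months, by 0.26 and 0.46. Calb1 and Pvalb, the calcium-binding proteins calbindin and parvalbumin of Purkinje cells and interneurons, fell at 12 months by 0.26 and 0.45 by the adjusted p (0.00166 and 4.26e-06), where Calb2 was higher by 0.53 and 12.5% of all tested genes passed the adjusted p in either direction. At 2 months they stood at -0.05 and 0.00.

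Neighbours within 1 Mb are set beside the shares over all tested genes at 12 months, of which 12.5% passed the adjusted p and 3.09% were DEGs. Of 13 tested genes around Eomes none was a DEG at 12 months, while by the adjusted p Rbms3 rose by 0.43 and Oxsr1 by 0.19. Of 7 around Lmx1a 1 was a DEG, the long noncoding RNA Gm16701, which rose by 0.53. None of 23 around Calb2 passed the adjusted p at either age.

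Other cell types of the cerebellum were set beside the markers, where at 12 months 12.5% of all tested genes passed the adjusted p in either direction and 1.83% were DEGs with lower levels in 304Q/304Q mice. Of 7 granule cell genes none was a DEG between genotypes at either age, with medians of -0.11 at 2 months and -0.07 at 12 months. Of 7 Purkinje cell genes 1 fell at 12 months as a DEG, Pcp2 by 0.59, and 4 of the 7 fell by the adjusted p, with a median of -0.28. Of 4 Golgi cell genes 1 fell by the adjusted p, with a median of -0.24. Their sums at 12 months were 173 to 212 CPM in 304Q/304Q mice and 231 to 248 CPM in WT/WT mice. The part of Golgi cells in the fall of Grm2 was not tested. Of 6 genes of myelinating oligodendrocytes 2 fell as DEGs at 12 months, Mobp by 0.80 and Mal by 0.61, and the median was -0.31. Myelin markers summed to 2752 to 3734 CPM in the 304Q/304Q mice of 12 months and to 4145 to 4818 CPM in the WT/WT mice. By the adjusted p no granule cell gene passed between genotypes at either age. Of the 7, 6 were below 0 at 2 months and 4 at 12 months. The part of granule cells in the rise of Calb2 was not tested. Of 4 tested choroid plexus genes none was a DEG between genotypes at either age. T and NK cells, which also use Eomes, were nearly absent, with a sum of 10 markers of 0.22 to 1.93 CPM and of 0.61 to 1.93 CPM in the 304Q/304Q mice of 12 months, in which Eomes was lowest.

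**Figure D4:**
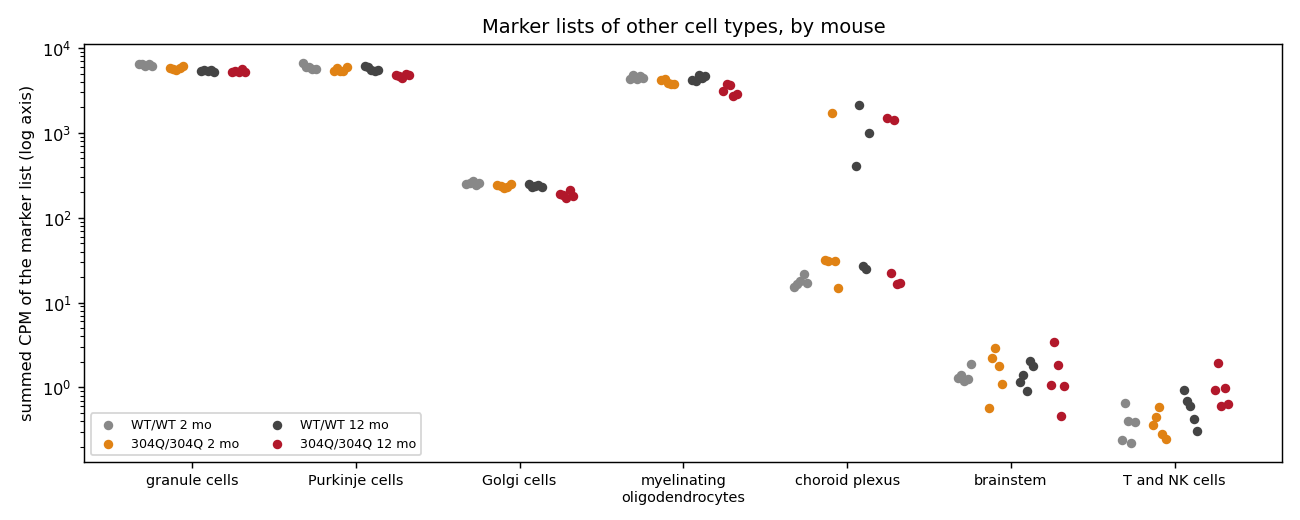
Summed CPM of the marker genes of 7 other cell types or regions in each of 20 mice (points, coloured by group), on a log axis. Granule cell sums of the WT/WT mice of 2 months (6159 to 6531 CPM) lie above those of both 12-month groups (5170 to 5601 CPM). Purkinje cell, Golgi cell and myelin sums are lowest in the 304Q/304Q mice of 12 months. In choroid plexus markers 6 libraries stand apart, and T and NK cell sums stay below 2 CPM.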

How the data were processed

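RNA of 20 mouse cerebella was measured by polyA-enriched, stranded RNA-seq with paired reads. Reads were aligned by the authors with STAR (version 2.4.5b per the labels) to GRCm38. The authors deposited whole-number counts per Ensembl gene from Rsubread, without normalization. A strand setting for the counting is not given in the sources used here. Counts were scaled by TMM and fitted with edgeR 4.0.16 (R 4.3.3, quasi-likelihood test, Benjamini-Hochberg) in 1 model of the 4 groups, over the 12153 genes whose mean reached 50 counts (99.3% of counts). Log2 CPM used a prior count of 2. The common biological coefficient of variation was 0.113, and replicates differed by more than sampling noise (chi-square per degree of freedom at least 4.43). Correlations used 100000 permutations within groups, 2-sided. Symbols and exon lengths come from GENCODE M21.

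The members and lists were chosen with earlier results of these data known. Named genes were the 3 members, the signalling list, called or most abundant genes of other lists, neighbours in position or in rank at 12 months, and the genes most like each member; Syndig1l was singled out after its values were seen. A few genes were left out of the lists and are not reported here. The scripts were tested on simulated data. Alternatives were DESeq2 1.42.0, its size factors, 3 surrogate variables (sva 3.50.0), other filters, fits of the compared groups only, a replicate block and each library left out; removal of the GC and length trend, and of 6 libraries with choroid plexus markers above 100 CPM, were chosen after seeing the data.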

Additional observations from a re-analysis of the deposited data

Results flagged for a closer look

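The genotype difference changed with age, in edgeR's test of the interaction over all genes, for 2 genes of the signalling list: Grm2 by -0.53 (adjusted p 0.0208) and Eps8 by 0.55 (adjusted p 0.0051). That list is not exclusive to unipolar brush cells. Leaving out each library gave adjusted p of up to 0.0556 for Grm2 and 0.0132 for Eps8. It was 0.0574 for Grm2 and 0.0125 for Eps8 without the 6 libraries with choroid plexus RNA. With the GC and length trend removed both changes came under the limit of 0.5 for a DEG, at -0.44 for Grm2 and 0.45 for Eps8.

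A single mouse lay far from the other 4 of its group in 2 of 44 groups looked at, where chance flags about 1 in 20. Otx2 was at 10.5 CPM in WT/WT mouse 4 of 2 months, where the others lay between 13.3 and 14.4 CPM. Slc17a6 was at 15.3 CPM in 304Q/304Q mouse 3 of 2 months, where the others lay between 11.1 and 12.1 CPM; this library also held choroid plexus RNA, whose part in the value was not tested.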

How the results depend on the processing

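At 2 months 1 gene, Igfbp5, was a DEG, and 6 passed by the adjusted p alone, 8 in DESeq2, 10 and 9 with surrogate variables in DESeq2 and edgeR, 2 with a mean of at least 10 counts, 3 with no filter, 3 with the GC and length trend removed and 1 to 2 with each library left out. The 375 DEGs of 12 months were 1523 by the adjusted p alone. Age in WT/WT mice gave 314 DEGs, 1398 by the adjusted p alone, 203 and 185 with surrogate variables in DESeq2 and edgeR, and 205 (without WT/WT mouse 1 of 2 months) to 595 (without WT/WT mouse 1 of 12 months) with each library left out. Of the 314, 170 were higher at 12 months, against 182 of 466 without the choroid plexus libraries. Age in 304Q/304Q mice gave 277 DEGs and 882 by the adjusted p alone. The interaction gave 114, and 237 by the adjusted p alone, 173 in DESeq2, 75 without the choroid plexus libraries and 75 (without WT/WT mouse 3 of 12 months) to 265 (without WT/WT mouse 1 of 12 months) with each library left out.

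The rise of Calb2 at 2 months kept its direction in all 30 alternatives and lost the adjusted p in 9: in the fit of the compared groups only (0.37), with the replicate block (0.37, adjusted p 0.11), without the choroid plexus libraries (0.35) and in 6 of 20 fits with a library left out, whose log2 fold changes lay between 0.33 and 0.42. Over the alternatives its adjusted p ran from 8.24e-09 to 0.148. The cause was not tested. Of the signalling genes, Scg2 and Plcb4 at 12 months passed the adjusted p but had values of up to 0.174 and 0.109 over the alternatives, the age difference of Kcnj6 in WT/WT mice one of up to 0.0713, and the interaction of Grm2 one of up to 0.0574.

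Same-numbered mice of the 2 genotypes did not deviate together (r between -0.323 and 0.077). Whether they share more than a number cannot be told from these values. With the number as a replicate block the interaction gave 72 DEGs and Calb2 at 2 months missed the adjusted p as above.

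Lmx1a had the fewest reads, at 2 to 53 counts per library. Its coefficient of variation within groups was 68.3% to 94.5%, where counting alone gives 22.8% to 27.2%, and that of Eomes 25.7% to 60.7%, where counting gives 3.77% to 7.97%.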
